A study of Glycine max with 12 samples.

Results

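Soybean genes named for dehydrins, late embryogenesis abundant (LEA) proteins and seed maturation proteins were followed in leaves of plants exposed to water shortage, heat or both. The genes were taken by name: the identifier had to be DEHYDRIN, to begin with LEA or GMLEA, or to be PM followed by a number. Of 55051 genes in the table, 24 matched, and 15 of these had a mean of at least 10 normalized counts over the 12 libraries, as did 33119 genes in all. The other 9 were PM13, PM22, PM24, PM25, PM28, PM31, PM32, PM34 and PM39, and PM13 and PM24 had no read in any library. Closest to the limit were PM27 and PM16 on the inside, with means of 15.7 and 19.3, and PM28 on the outside, with 3.5.

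LEA proteins accumulate late in seed development as the embryo dries, and most are hydrophilic and lack a fixed fold in water. Many also appear in leaves and roots during drought, cold or treatment with abscisic acid, the hormone that closes stomata and sets off much of the drought response. Dehydrins are the LEA group that carries lysine-rich K-segments, which can bind membranes. The PM symbols come from cDNAs cloned from maturing soybean seeds, so they tell where a transcript was first found, and not that its protein belongs to a LEA group.

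RNA was sequenced from leaves of wild-type plants of Magellan (PI595362), a soybean cultivar, grown in chambers. The 4 groups had 3 libraries each. Control plants were untreated, water deficit plants were exposed to drought, heat stress plants to heat, and combined stress plants to drought and heat at once. The labels give neither the severity or length of the treatments nor the time of harvest, and they do not say whether libraries came from separate plants. P-values therefore measure the spread between these libraries, which may be technical.

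The libraries held 26077068 to 46186226 reads, with a read for 36790 to 39367 genes. Leaf photosynthesis genes were abundant, with RBCS-1, a Rubisco small subunit gene, at 48856 to 432675 normalized counts, while the 4 nodule leghemoglobin genes had at most 1 read in a library. Heat stress library 3 and combined stress libraries 2 and 3 stood apart in LCL3, a clock gene, at 2013, 1863 and 2112 normalized counts. The other 9 libraries had 153 to 788. Leaving these 3 out keeps combined stress library 1 alone and heat stress libraries 1 and 2. Changes in combined stress from that fit rest on 1 library, and its results are given as effect sizes only. Whether the clock gene difference plays a part in these changes was not tested.

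All values below are normalized counts, which are reads per gene divided by a factor for each library. They are not divided by transcript length, so levels are compared between libraries and not between genes. Log2 changes come from limma on log2(normalized count + 1), and a gene was called higher or lower at a Benjamini-Hochberg adjusted p under 0.05 over the 33119 genes. In bulk leaf tissue, fewer cells expressing a gene and less RNA per cell cannot be told apart.

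Of the 15 genes, 8 were called higher in combined stress than in control. These were DEHYDRIN, LEA5, PM3, PM12, PM16, PM27, PM35 and PM41, and none was called lower. In 9 members, 2 of them with a control mean of at least 10, all 3 combined stress libraries were above all 3 control libraries, and 18.5% of genes tested did so. Among all genes tested, 6.56% were called higher and 7.25% lower in this comparison. In water deficit alone 1 member, DEHYDRIN, was called higher, against a background of 0.589%. None was called lower there, where the background was 0.688%. In 7 members, 3 of them with a control mean of at least 10, the 3 water deficit libraries were above the 3 control ones, and 13.9% of genes tested did so. No member was called in heat stress in either direction, where 1.72% of genes were higher and 1.39% lower. By edgeR and by DESeq2 on the recovered reads the count in heat stress was also 0. There 2 members had an unadjusted limma p under 0.05, as did 6983 of the 33119 genes tested.

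The filter bears on these counts. Of the 15 genes, 7 had a mean under 10 in control and passed the filter through treated libraries, so they had to differ, and the counts over all 15 are a description from which nothing is read. The 8 genes with a control mean of at least 10 gave 2 of the calls in combined stress, DEHYDRIN and LEA5. Their median log2 change against control was 0.27 in combined stress, 0.87 in water deficit and -0.85 in heat stress. For the 7 low genes the medians were 4.84, 2.82 and -0.30. Over all 15 the medians were 4.11, 1.62 and -0.53, beside -0.01, 0.02 and -0.01 over all genes tested.

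**Figure D1:**
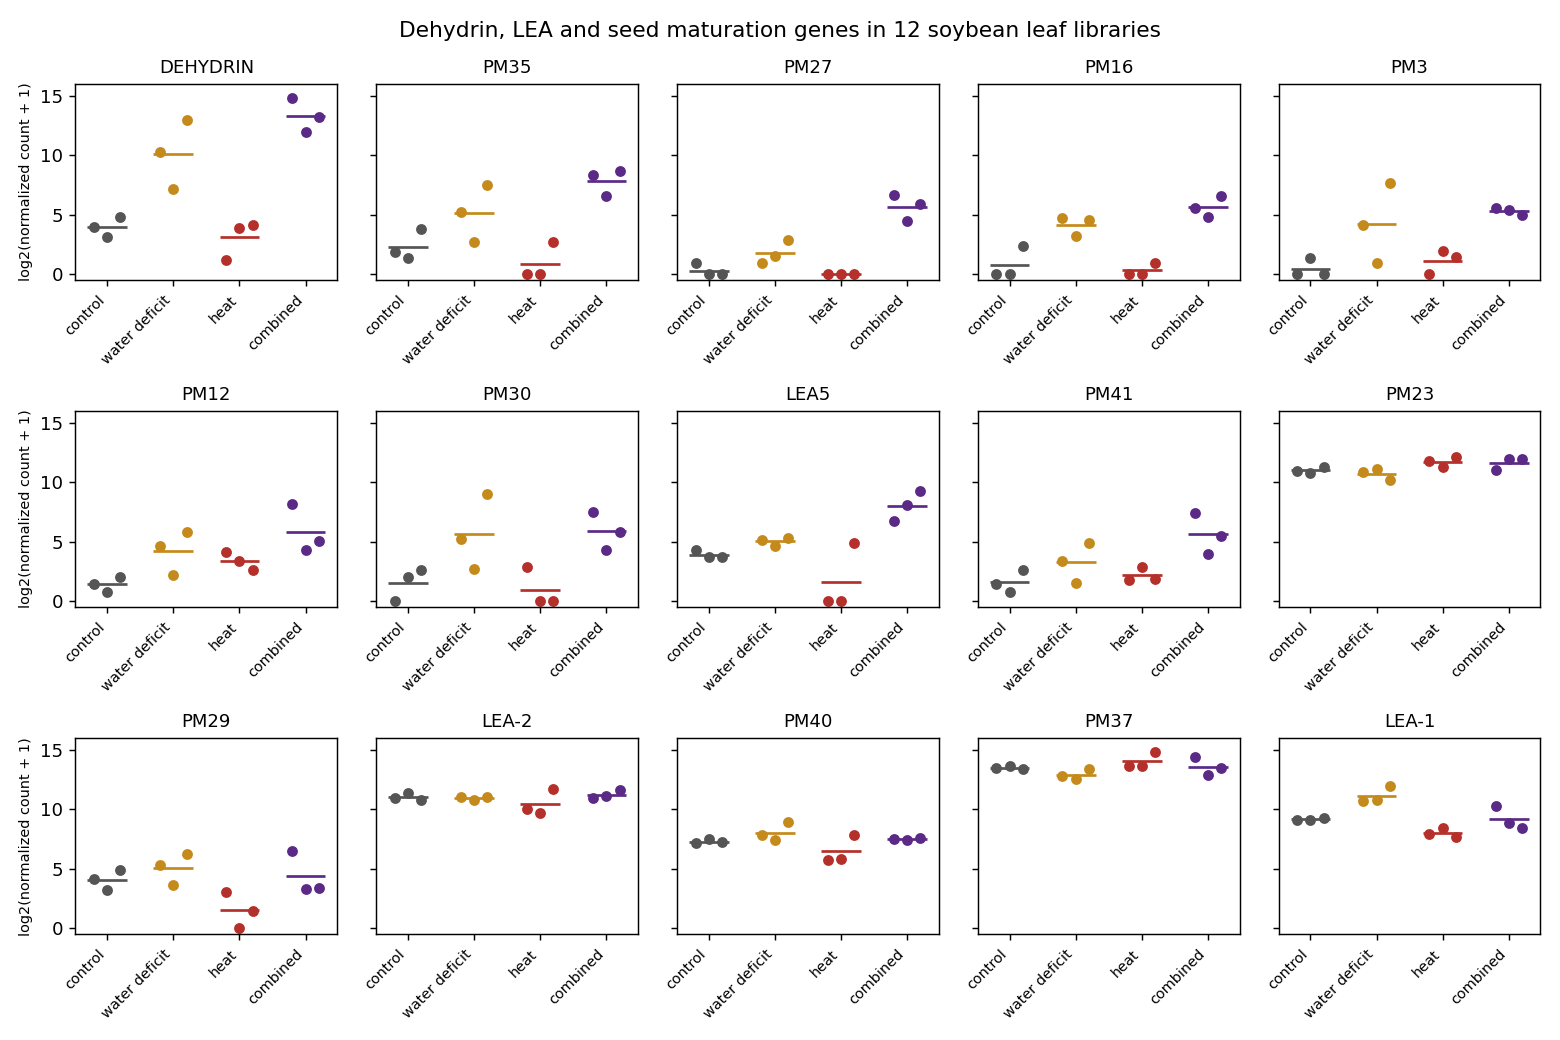
Level of each of the 15 genes as log2(normalized count + 1) on the vertical axis, with a panel per gene, a point per library and a line at the mean of the 3 libraries of each group. DEHYDRIN and PM16 have every dry library above every watered one, while PM37, PM23 and LEA-2 lie at similar heights in the 4 groups.

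DEHYDRIN, for which the RefSeq gene table lists lea-D-11 and MAT9 as synonyms, ranged from 1.26 to 28753 over the 12 libraries. It stood at 15.0, 7.62 and 26.1 in control libraries 1, 2 and 3 and at 1.26, 13.9 and 17 in heat stress. Water deficit libraries 1 to 3 had 1220.5, 137 and 7872, and combined stress had 28753, 3982 and 9348. Each of the 6 dry libraries was above each of the 6 watered ones, but water deficit library 3 lay above combined stress library 2.

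In means, DEHYDRIN went from 16.2 ± 9.33 in control to 14027 ± 13032 in combined stress (n = 3 per group, error as SD), a ratio of 863, or 410.2 without combined stress library 1. The log2 change was 9.36 (SE 1.26, limma adjusted p 0.00104), and the call was kept in each of the 12 fits that left out 1 library. In combined stress library 1 the gene took 0.0754% of all reads (exact 95% interval 0.0746% to 0.0762%, counting error only), against 0.000387% (0.000328% to 0.000454%) in water deficit library 2.

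Water deficit alone brought DEHYDRIN to 3077 ± 4188. Its log2 change of 6.15 (SE 1.26, limma adjusted p 0.0417) was called, but 7 of 12 fits with a library left out lost the call. These were the fits without control libraries 1, 2 or 3, water deficit libraries 1 or 3, heat stress library 2 or combined stress library 3, with log2 changes of 4.73 to 7.64 over the 12 fits and adjusted p up to 0.156. In heated but watered leaves the mean was 10.7 ± 8.33, and the change of -0.87 from control was not called (limma adjusted p 0.741).

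The genes named LEA did not share a pattern. LEA5 carries the symbol of an atypical, more hydrophobic LEA group first described in cotton. It stood at 18.5, 12.2 and 12.6 in control, 35.5, 24.7 and 39.0 in water deficit, and 109, 263 and 619.6 in combined stress. Heat stress libraries 1 and 2 had no LEA5 read, while heat stress library 3 had 29.5. All 3 combined stress libraries were above the other 9, and the 3 water deficit libraries were above the control libraries.

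The mean of LEA5 was 14.4 ± 3.54 in control and 331 ± 262 in combined stress, and it was called higher (log2 change 4.11, SE 1.10, limma adjusted p 0.029). That call was lost without control library 1, 2 or 3 or combined stress library 2 or 3, with adjusted p up to 0.123 and log2 changes of 3.49 to 4.74. In heat stress the change was -2.28 (limma adjusted p 0.259). Without heat stress library 3 it was -3.92 (limma adjusted p 0.00344), which would be called lower.

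LEA-1 was the member called lower in combined stress than in water deficit. Control libraries had 557, 567 and 608, water deficit libraries 1719, 1743 and 4052, heat stress libraries 248, 346 and 203, and combined stress libraries 1271, 469.8 and 347. Every water deficit library was thus above the control libraries, every heat stress library was below them, and combined stress libraries lay on both sides.

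For LEA-1 the change in water deficit was 1.99 (SE 0.44) and missed the threshold at a limma adjusted p of 0.0536. It passed by limma with the same total per library (adjusted p 0.0465), quantile normalization (0.0469) or the compared libraries alone (0.0166), and by DESeq2 (0.0007). Of 12 fits with a library left out, 3 passed, with limma adjusted p of 0.011 to 0.197 over the 12. In heat stress the LEA-1 change was -1.15 (limma adjusted p 0.165), and in combined stress 0.04 (0.965). Combined stress was called lower than water deficit (log2 change -1.95, SE 0.44, limma adjusted p 0.0167). That call was lost without water deficit library 3 (-1.55, adjusted p 0.0561), combined stress library 2 (-1.79, 0.0538) or combined stress library 3 (-1.57, 0.0767). Without the 3 libraries high in LCL3, which leaves combined stress library 1 alone in its group, the change was -0.85.

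LEA-2 was not called in any comparison. Its control libraries had 1949.8, 2597 and 1728, and its water deficit libraries 2138, 1767 and 2082. Combined stress libraries had 1946, 2296 and 3147. Heat stress was split, with 1044 and 814 in libraries 1 and 2 and 3449.6 in library 3. Its change in heat stress was -0.53 (limma adjusted p 0.517), and without heat stress library 3 it was -1.16 (limma adjusted p 0.0114).

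Of the PM genes, PM16 was higher in each dry library than in any watered one. It had no read in control libraries 1 and 2 and 4.18 in control library 3, and in heat stress it had 0, 0 and 0.893. Water deficit libraries had 25.2, 8.24 and 23.0, and combined stress libraries 47.1, 27.3 and 95.3. Combined stress libraries thus lay above all the others, and water deficit libraries lay between them and the watered ones.

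PM16 rose from 1.39 ± 2.42 in control to 56.6 ± 34.9 in combined stress (log2 change 4.88, SE 0.83, limma adjusted p 0.00349), and the call was kept in all 12 fits with a library left out. Its mean in water deficit was 18.8 ± 9.23 (log2 change 3.38, limma adjusted p 0.0768).

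PM27 was close to undetected outside combined stress. It had 0.881, 0 and 0 in control, 0.933, 1.83 and 6.2 in water deficit, and no read in the 3 heat stress libraries. Combined stress libraries had 97.5, 20.7 and 60.0, each above the other 9 libraries. Water deficit library 1 and control library 1 held 1 read each, so their order (0.933 and 0.881) comes from the scaling of the libraries alone.

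With 218 reads in combined stress and 1 in control, the ratio for PM27 was 202 (95% counting interval 35.9 to 8028). The log2 change was 5.36 (SE 0.85, limma adjusted p 0.0025), and all 12 fits with a library left out kept the call. For water deficit the ratio to control was 10.3 (counting interval 1.47 to 449), and the change was not called (limma adjusted p 0.512). Of the 8 members with a control mean of at least 10, DEHYDRIN alone had all 6 dry libraries above all 6 watered ones. Of all genes tested, 581 did (1.75%).

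PM35 was called higher in combined stress against both control and heat stress. Control libraries had 2.64, 1.52 and 12.6, heat stress libraries 0, 0 and 5.36, and combined stress libraries 325, 92.0 and 401. Water deficit libraries spread over 35.5, 5.49 and 183, so library 2 lay within the control range.

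PM35 rose from 5.57 ± 6.07 in control to 273 ± 161 in combined stress (log2 change 5.53, SE 1.18, limma adjusted p 0.0108). The call was lost without combined stress library 3 (5.12, adjusted p 0.0505) and kept in the other 11 fits.

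PM3 had 1 library that set its water deficit mean. It stood at 16.8, 0.915 and 199 there, against 0, 1.52 and 0 in control and 0, 2.79 and 1.79 in heat stress. Combined stress libraries were close together, at 45.4, 39.8 and 30.4, and above all control and heat stress libraries.

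The ratio of combined stress to control for PM3 was 65.4 (95% counting interval 17.8 to 546, from 141 reads against 2), and it was called higher (log2 change 4.84, SE 1.31, limma adjusted p 0.0313). The call was lost without any 1 of the control or combined stress libraries, with adjusted p up to 0.0973 and log2 changes of 4.62 to 5.29. Without the 3 libraries high in LCL3, which leaves combined stress library 1 alone in its group, the change was 5.09. In water deficit the change was 3.80 (limma adjusted p 0.205).

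PM12 and PM41 were highest in combined stress library 1. PM12 had 1.76, 0.762 and 3.14 in control and 285, 19.1 and 32.0 in combined stress. Its water deficit libraries had 24.3, 3.66 and 55.8, and its heat stress libraries 16.4, 9.29 and 5.36, so the 9 treated libraries were above the 3 control ones. PM41 had 1.76, 0.762 and 5.23 in control, 9.33, 1.83 and 29.2 in water deficit, 2.52, 6.51 and 2.68 under heat, and 169, 14.9 and 44.8 in combined stress. Its combined stress libraries were above its control ones, while water deficit library 2 lay among them.

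For PM12 the change in combined stress was 4.40 (SE 1.05, limma adjusted p 0.0183), lost without control library 1 (4.41, adjusted p 0.0563) or 2 (4.09, 0.0631). For PM41 it was 4.0 (SE 1.01, limma adjusted p 0.0229), lost without control library 1 (3.91, adjusted p 0.0715) or 2 (3.59, 0.0791) or combined stress library 1 (3.11, 0.0625) or 3 (4.06, 0.0723). Neither gene was called in water deficit or heat stress alone.

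PM30, a group 3 LEA gene, was not called in any comparison by limma over all 12 libraries. It had 0, 3.05 and 5.23 in control, 37.3, 5.49 and 503 in water deficit, 6.3, 0 and 0 under heat, and 183, 19.1 and 56.0 in combined stress. Every dry library was above every control library, but water deficit library 2 lay below heat stress library 1. The changes were 4.34 in combined stress (SE 1.45, limma adjusted p 0.0677) and 4.09 in water deficit (limma adjusted p 0.219). The combined stress change passed without water deficit library 2 (adjusted p 0.0442) or 3 (0.031), with the compared libraries alone (0.0298) and by DESeq2 (0.044), which also called water deficit (0.0313).

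The remaining 4 PM genes were not called in any comparison. PM29 had 16.7, 8.38 and 29.3 in control, 40.1, 11.9 and 74.4 in water deficit, 7.57, 0 and 1.79 under heat, and 87.6, 9.11 and 9.61 in combined stress. The heat stress libraries of PM29 were all below its control libraries (log2 change -2.57, limma adjusted p 0.177). PM40 had 140.1 to 181 in control, 168 to 479 in water deficit and 174 to 191 in combined stress, and in heat stress libraries 1, 2 and 3 it had 51.7, 55.8 and 231. Its change in heat stress was -0.83 (limma adjusted p 0.381), and -1.53 without heat stress library 3 (0.0195).

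PM37 and PM23 had their lowest mean in water deficit and their highest in heat stress. PM37 had 11556, 12732 and 10987 in control, 7161, 6000.0 and 10736 in water deficit, 12481, 13167 and 28307 under heat, and 21653, 7649 and 11183 in combined stress. PM23 had 1986, 1781 and 2512 in control, 1906, 2253 and 1134 in water deficit, 3429, 2458 and 4577 under heat, and 2104, 3986 and 3912 in combined stress. Log2 changes of PM37 against control ran from -0.60 to 0.51 and those of PM23 from -0.29 to 0.71. PM37 in water deficit lay below control in every library.

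**Figure D2:**
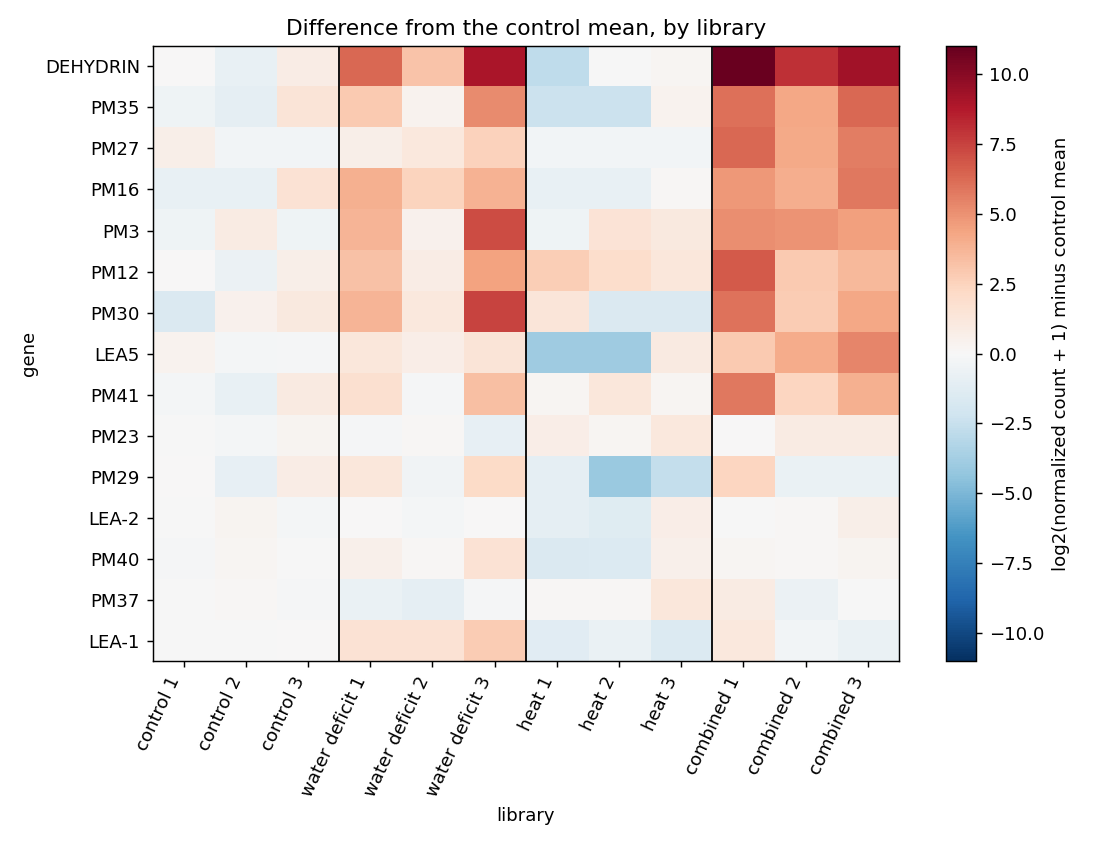
Log2(normalized count + 1) of each gene and library minus the mean of its 3 control libraries, in colour, with genes in rows and the 12 libraries in columns. The 3 combined stress columns are red for the upper 9 genes, DEHYDRIN to PM41, and water deficit library 2 is paler than water deficit libraries 1 and 3 for DEHYDRIN, PM35, PM3 and PM30.

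Within a group, the same library was often the highest for many members. Water deficit library 3 was the highest of its group for 12 of the 15 members (80%), against 39.1% of all genes tested. Combined stress library 1 was the highest of its group for 9 members (60%, against 42.3%), and control library 3 for 9 (60%, against 41.3%). Of the 8 members with a control mean of at least 10, combined stress library 1 was highest for DEHYDRIN, LEA-1, PM29 and PM37. Control library 3 was highest for DEHYDRIN, LEA-1, PM23 and PM29 of these 8. Water deficit library 3 was so for DEHYDRIN, LEA-1, LEA5, PM29, PM37 and PM40. The other members had passed the filter through treated libraries, so the counts over all 15 are a description only. The median SD of the members within a group, on the log2 scale, was 0.62 in control, 0.98 in water deficit, 1.01 under heat, and 1.11 in combined stress. Over all genes tested it was 0.25, 0.27, 0.37 and 0.35. Single members ran from 0.07 (LEA-1) to 1.38 (PM30, with 0, 4 and 5 reads) in control, and from 0.15 (LEA-2) to 3.36 (PM3) in water deficit. Members with few reads carry more counting error, and its share in these medians was not tested.

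Water deficit was also applied to heated plants, and combined stress against heat stress measures it there. This comparison shares no library with water deficit against control, whereas the 3 comparisons against control share the control libraries. Among heated plants 5 members were called higher in dry leaves. DEHYDRIN and LEA5 were 2 of the 8 members with a control mean of at least 10, against a background of 2.38%. PM16, PM27 and PM35 had a lower control mean and had passed the filter through dry libraries, which largely fixed their calls. No member was called lower, where the background was 2.83%. The median log2 change of the 15 genes was 3.44, beside -0.01 over all genes, and it was 1.11 in the 8 genes with a control mean of at least 10. All 3 combined stress libraries were above all 3 heat stress libraries in 4 of these 8 genes, DEHYDRIN, LEA-1, LEA5 and PM29, and in 9.17% of genes tested. The 7 genes with a low control mean, which the filter had selected through dry libraries, did so too.

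DEHYDRIN was 1308 times as high in combined stress as in heat stress (log2 change 10.24, SE 1.26, limma adjusted p 0.00214). Without combined stress library 1 the ratio was 622, and leaving out each library in turn gave log2 changes of 9.29 to 10.92. For PM35 the ratio was 153 (log2 change 6.96, limma adjusted p 0.00924). LEA5 changed by 6.39 (limma adjusted p 0.00966), with a ratio of means of 33.7, or 19.0 without combined stress library 3, and log2 changes of 5.57 to 8.04 with each library left out. PM16 gave a ratio of 170 (95% counting interval 30.2 to 6760, from 209 reads against 1), with a log2 change of 5.36 (limma adjusted p 0.00606). PM27, with no read in heat stress, was at least 15.7-fold higher, taking 3 reads in a heat stress library as the floor (limma adjusted p 0.0053). These 5 calls were kept in all 12 fits with a library left out.

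The estimated effect of water deficit was above 0 both with and without heat in 5 of the 8 members with a control mean of at least 10, beside 31.8% of all genes tested. It was so in all 7 members with a lower control mean, for which the filter had largely fixed it. The exceptions among the 8 were LEA-2, which was at -0.05 without heat and 0.75 with it, and PM23 and PM37, which were below 0 in both. The estimates were further from 0 in heated plants for DEHYDRIN (6.15 and 10.24), PM35 (2.82 and 6.96), PM27 (1.46 and 5.66) and LEA5 (1.14 and 6.39). PM35 had passed the filter through dry libraries and PM27 through those of combined stress alone, so nothing is read from their pairs. For PM3 (3.80 and 4.15), PM12 (2.79 and 2.46) and PM30 (4.09 and 4.94) the pairs were within their standard errors.

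**Figure D3:**
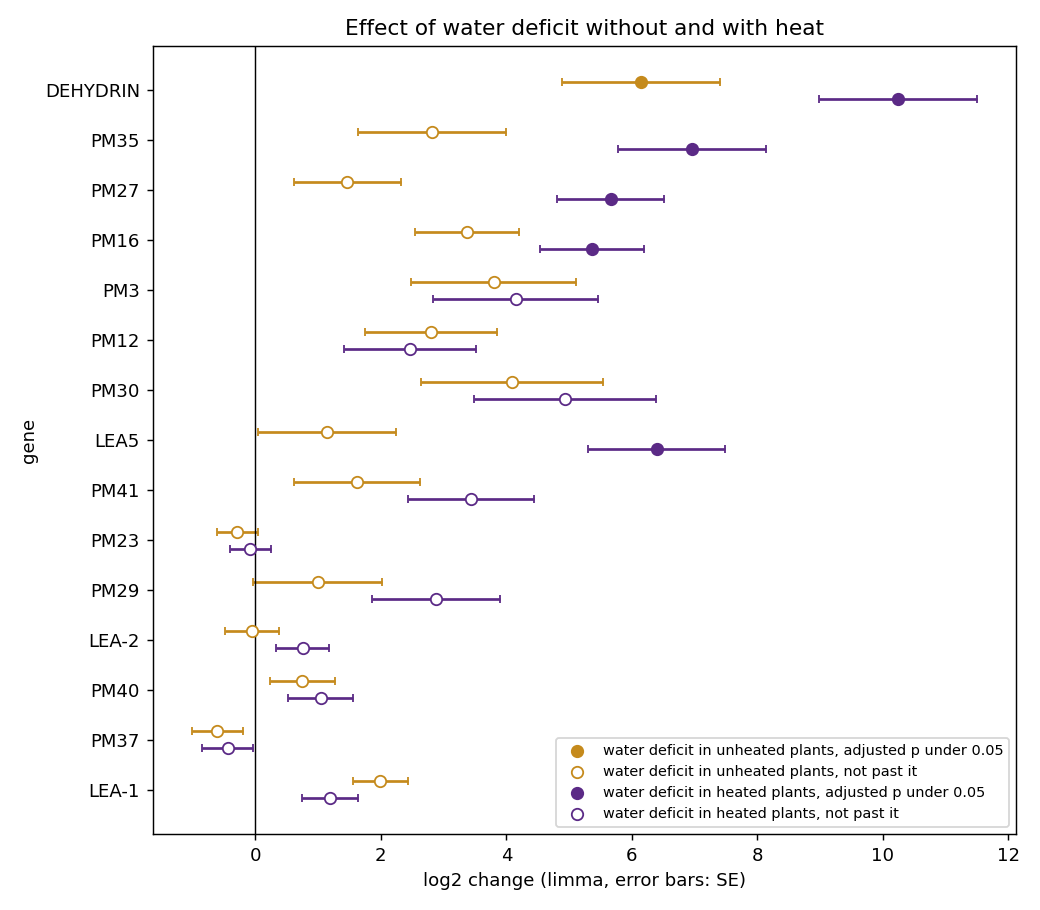
Log2 change on water deficit (limma, error bars are SE) for each gene in unheated plants, as water deficit minus control, and in heated plants, as combined stress minus heat stress. Filled points have an adjusted p under 0.05. The 2 estimates lie far apart for DEHYDRIN, PM35, PM27 and LEA5 and close together for PM3, PM12, PM37 and PM40.

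The difference between these 2 effects is the interaction. No member passed the threshold for it by limma, edgeR or DESeq2, and 4 members had an unadjusted limma p under 0.05. They were LEA5 (5.25, SE 1.55, p 0.00549), PM27 (4.20, SE 1.21, p 0.00463), PM35 (4.14, SE 1.66, p 0.0287) and DEHYDRIN (4.09, SE 1.79, p 0.041). After limma's adjustment their p-values were 0.408 to 0.513. PM27 had passed the filter through combined stress libraries alone, which largely fixed the sign of its estimate. PM35 also had a control mean under 10 and had passed through dry libraries. Nothing is read from the interaction estimates of PM27 and PM35. Over all genes tested limma called 0% for the interaction, with 3132 at an unadjusted p under 0.05, edgeR called 0 and DESeq2 called 261. Without heat stress library 3 the LEA5 interaction was 6.89 (limma adjusted p 0.0053).

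Heat added to water deficit gave 1 member called higher, PM27 (background 5.87%), and 1 called lower, LEA-1 (background 6.87%). PM27 changed by 3.90 (SE 0.85, limma adjusted p 0.0143). That call was lost without water deficit library 1 (3.49, adjusted p 0.0552) or 2 (3.76, 0.0526) or combined stress library 3 (3.76, 0.0805). Without the 3 libraries high in LCL3, which leaves combined stress library 1 alone in its group, the PM27 change was 4.85. The filter had admitted PM27 through its combined stress libraries alone, which largely fixed this excess over water deficit. Nothing is therefore read from the PM27 call. DEHYDRIN differed by 3.22 (limma adjusted p 0.111), LEA5 by 2.97 (0.094), PM35 by 2.71 (0.145) and PM41 by 2.38 (0.136). LEA5 passed in 4 of 11 other settings and in 1 of 12 fits with a library left out. By limma these were a pseudocount of 10 (adjusted p 0.0154), quantile normalization (0.0482), the compared libraries alone (0.0316) and no heat stress library 3 (0.00559). By edgeR LEA5 passed at an adjusted p of 0.0496. Heat had estimates below 0 in watered plants and above 0 in dry plants for 7 members, above 0 in both for 5 and below 0 in both for 3. Of the 7, DEHYDRIN, LEA-2 and LEA5 had a control mean of at least 10. The others, PM16, PM27, PM30 and PM35, had passed the filter through dry libraries, which favours these signs, so nothing is read from the count. Over all genes tested these counts were 4697, 10918 and 12068. The medians were -0.53 and 1.04 for the members, -0.85 and 0.47 for the 8 with a control mean of at least 10, and -0.01 and -0.04 for all genes.

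By group means, combined stress was the highest group for 8 members, water deficit for 5 (LEA-1, PM3, PM29, PM30 and PM40) and heat stress for 2 (PM23 and PM37). Of the 8, PM12, PM16, PM27, PM35 and PM41 had passed the filter through treated libraries. The share of all genes with each order was not computed, so nothing is read from these counts. Heat stress was the lowest group for 10 members, control for 3 (PM3, PM12 and PM41) and water deficit for 2. Neighbouring groups overlapped in many of these orders. For DEHYDRIN heat stress and control overlapped, as did water deficit and combined stress, while the pairs themselves did not.

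Other genes of the same protein families were looked up by their synonyms after the members' values had been seen. MAT1, with the synonyms dehydrin and LEA-D11, is a further dehydrin gene outside the naming rule. It stood at 21.1, 9.9 and 5.23 in control, 542, 246 and 549.5 in water deficit, 15.1, 26 and 14.3 under heat, and 2873, 357 and 480.3 in combined stress. As for DEHYDRIN, all 6 dry libraries were above all 6 watered ones, and combined stress library 1 was the highest.

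MAT1 rose in combined stress by 6.11 (SE 0.71, limma adjusted p 0.000453) and in water deficit by 5.19 (SE 0.71, limma adjusted p 0.00934). The second call was lost without control library 3 (4.76, adjusted p 0.0629). SLE2, an Em gene of LEA group 1 with the synonym GmPM11, and SLE1 had 1 read each over the 12 libraries. MP2, with the synonym PM2, had at most 6 reads in a library.

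**Figure D4:**
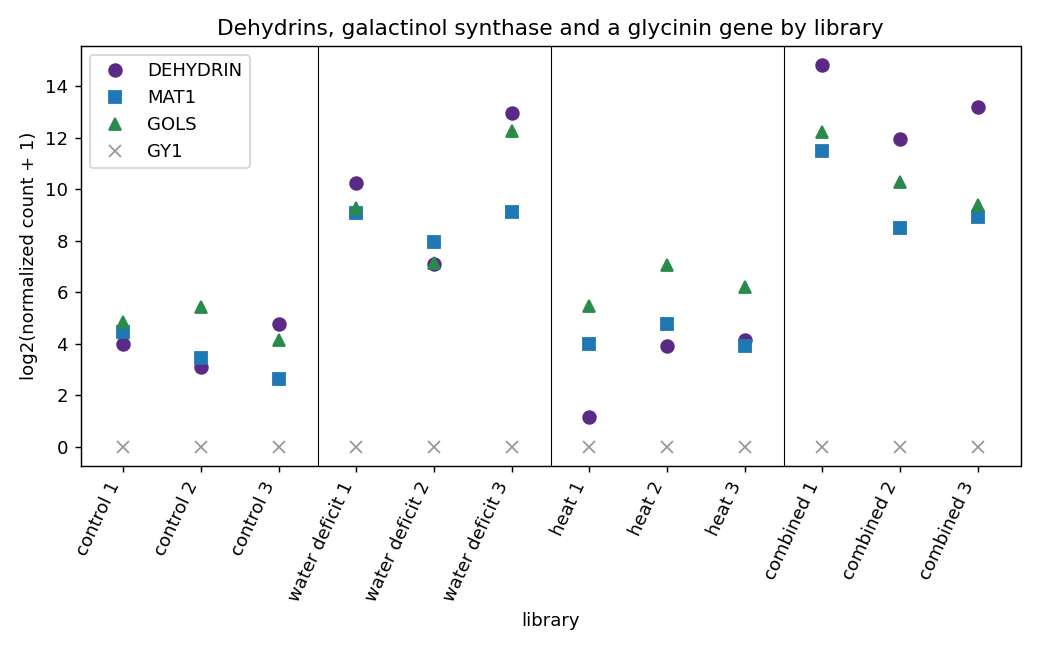
Log2(normalized count + 1) of DEHYDRIN, MAT1, galactinol synthase (GOLS) and the glycinin gene GY1 in each of the 12 libraries, with vertical lines between groups. DEHYDRIN, MAT1 and GOLS are higher in each dry library than in any watered one, while GY1 is at 0 throughout.

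Most genes of seed storage were at or near 0 in these leaves. Of 20 genes taken by symbol for seed storage proteins and protease inhibitors, 13 had no read in any library and 15 had at most 3 reads in every library. The glycinin (GY) and conglycinin (CG) genes had at most 3 reads in a library. The 2 LEC1 genes, which encode regulators of seed maturation, had at most 1 read. In combined stress 6.56% of all genes tested were called higher and 7.25% lower. Of the storage and inhibitor genes 5 were tested, and none was called by limma against control in any group. The 3 with the highest means gave changes in combined stress of -1.38 for GMKTI-3 (limma adjusted p 0.259), -0.29 for GMKTI-2 (0.837) and -2.75 for SBPRP (0.249). SBPRP entered the list only because its symbol begins with SBP, which does not show that it encodes a storage protein or an inhibitor. Its values are not read as expression of seed storage genes.

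Enzymes of compatible solutes, the small molecules that cells build up on drying, were called in part. Of 8 genes tested, 2 were called higher in combined stress, 1 in water deficit and none in heat stress. The shares over all genes tested were 6.56%, 0.589% and 1.72%. The list is small, so nothing is read from its counts. GOLS, galactinol synthase, makes the galactose donor for raffinose sugars. It had 28.2, 41.9 and 16.7 in control, 616, 141 and 4926 in water deficit, 42.9, 133 and 73.2 under heat, and 4804, 1249 and 672 in combined stress. Water deficit library 3 and combined stress library 1 were highest in their groups, as for DEHYDRIN. Its change was 5.82 in combined stress (SE 1.06, limma adjusted p 0.00482) and 4.75 in water deficit (limma adjusted p 0.0538).

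STS, stachyose synthase, acts later in the same pathway. It rose from 176 ± 16.1 in control to 2383 ± 1267 in combined stress (log2 change 3.63, SE 0.41, limma adjusted p 0.00039). In water deficit it had 889 ± 563 (2.15, limma adjusted p 0.0309), a call lost without control library 1, 2 or 3 or water deficit library 1 or 3 (adjusted p up to 0.124, log2 changes of 1.67 to 2.54). The 3 solute genes with the highest means were not called in combined stress. MIPS4, which makes inositol phosphate, had a log2 change of -2.18 (limma adjusted p 0.272), and of -4.01 (0.00786) without combined stress library 1. Its combined stress libraries had 19994, 1223 and 160. Its water deficit libraries had 56632, 39787 and 48503, each above its control libraries at 9877, 7751 and 4801. MIPS4 was not called by limma in water deficit. Without the 3 libraries high in LCL3, which leaves combined stress library 1 alone in its group, the MIPS4 change was 1.48. The betaine aldehyde dehydrogenase genes BADH2 and BADH1 had changes of -0.18 (0.52) and 1.39 (0.0792).

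Of 6 abscisic acid genes tested, 1 was called higher in water deficit, and in combined stress 1 was called higher and 1 lower. Over all genes tested 0.589% were called higher in water deficit, and 6.56% higher and 7.25% lower in combined stress. The gene called higher in both was GMCYP707A1A, whose enzyme breaks down abscisic acid. The control mean was 15.5 ± 2.62, and the other means were 115 ± 79.6 in water deficit, 16.8 ± 4.75 under heat, and 79.8 ± 6.06 in combined stress. It rose by 2.30 in combined stress (SE 0.44, limma adjusted p 0.0066) and by 2.61 in water deficit (limma adjusted p 0.018). The second call was lost without control library 1, 2 or 3 or water deficit library 1 or 3 (adjusted p up to 0.102, log2 changes of 2.09 to 3.03). Without the 3 libraries high in LCL3, which leaves combined stress library 1 alone in its group, the combined stress change was 2.28.

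SPK-2, a protein kinase gene, fell in combined stress (-0.82, SE 0.23, limma adjusted p 0.0358). The call was lost without control library 1, 2 or 3, water deficit library 1 or 2, or combined stress library 2 or 3 (adjusted p up to 0.113, log2 changes of -0.88 to -0.72). SPK-4 and SPK-3, the kinase genes with the highest means of the list, had changes of 0.46 (0.405) and 0.15 (0.782). NCED2, which encodes a step of abscisic acid synthesis, had 21.4 ± 7.88 in control and 5.43 ± 1.59 in combined stress (-1.76, limma adjusted p 0.089).

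Of 8 DREB genes, whose proteins bind the dehydration response element, 2 were called higher in combined stress and none in the single stresses. Among all genes tested 6.56% were called higher in combined stress, 0.589% in water deficit and 1.72% in heat stress. GMDREB2A2 rose by 1.50 (SE 0.39, limma adjusted p 0.0268), from 304 ± 81.8 to 963 ± 606. DREB2 rose by 1.55 (SE 0.44, limma adjusted p 0.0362). The GMDREB2A2 call was lost without control library 1 or 3 or combined stress library 3 (adjusted p up to 0.105). The DREB2 call was lost without control library 1, 2 or 3 or combined stress library 1 or 3 (up to 0.106). Without the 3 libraries high in LCL3, which leaves combined stress library 1 alone in its group, the DREB2 change was 2.11. DREB3 and DREB1, with the highest means of the list, had changes of 0.25 (0.511) and 0.47 (0.239).

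**Figure D5:**
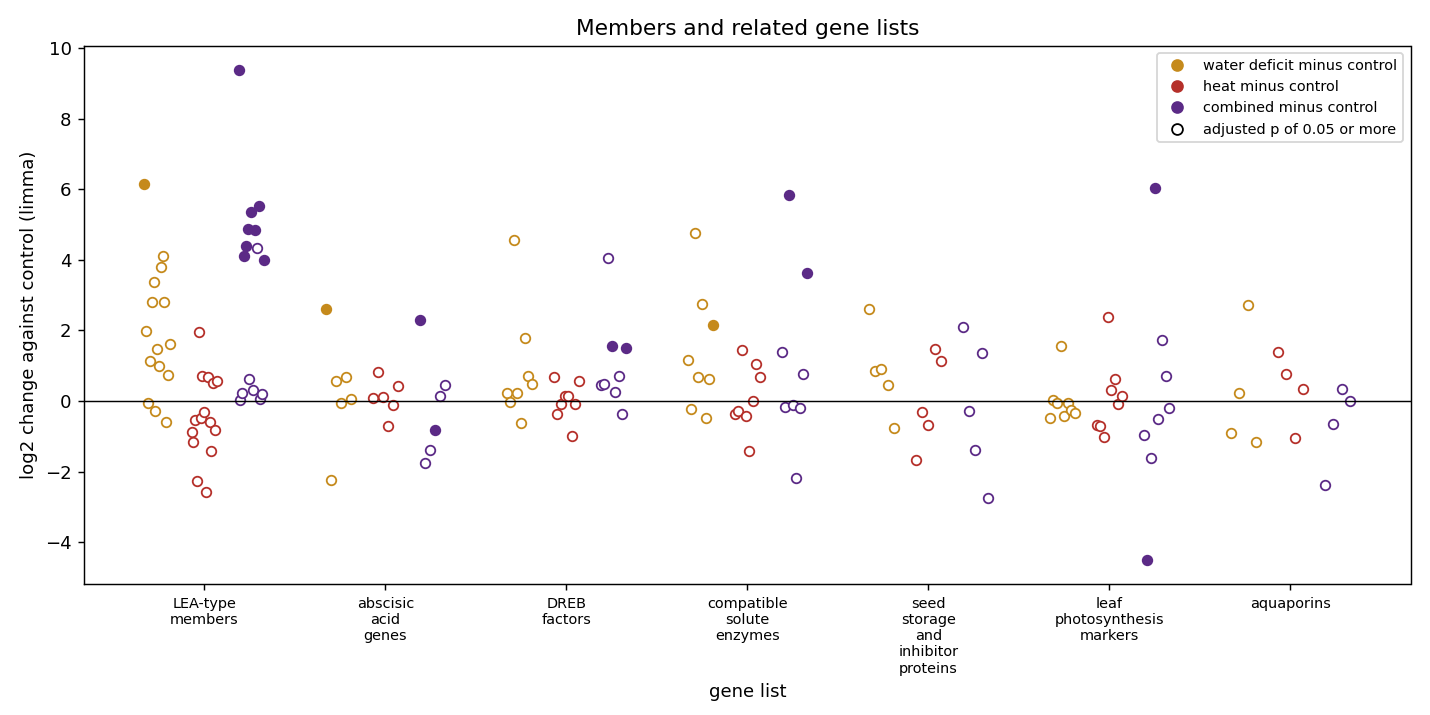
Log2 change against control (limma) in water deficit, heat and combined stress for the 15 genes (LEA-type members) and for 6 other gene lists, a point per gene tested. Filled points have an adjusted p under 0.05. The combined stress points of the members form an upper group of 9 genes at 4.0 or more and a lower group of 6 near 0.

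Leaf photosynthesis genes and aquaporins served as lists not named for drying. Of 8 photosynthesis genes, 1 was called higher in combined stress (RCA03, 6.03, limma adjusted p 0.000164) and 1 lower (LHCB1-7, -4.49, limma adjusted p 0.00634). The shares over all genes tested were 6.56% higher and 7.25% lower. RBCS-1 had a change of -1.61 (0.104), CAB3 of -0.96 (0.337) and RCABETA of -0.20 (0.838). None of the 4 aquaporin genes tested was called by limma, with changes in combined stress of -0.01 for PIP2 (0.993), -2.37 for GMNIP2-2 (0.125) and 0.35 for PIP1 (0.778).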

How the data were processed

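Leaf RNA of 12 soybean libraries was analysed in 4 groups of 3. Replicate numbers follow the order of the records and pair nothing. The deposited table gives the authors' normalized counts, a signal per gene and library. In each column 100% of the values were whole multiples of the value of 1 read (largest distance from a whole number 6.19e-05), so reads were recovered. Per the submitters' processing notes, cutadapt 1.18, FastQC 0.11.7, STAR 2.4.0.1 and DESeq2 1.20.0 were used. The genome build, the annotation, the counting method and its use of strand are not given in the sources used here, so values of near-identical gene copies are uncertain. No sequence or coordinate is printed.

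The main test was limma 3.58.1 in R 4.3.3 on log2(value + 1), with genes whose mean reached 10, 4 groups in 1 fit, a variance trend and two-sided tests. Adding 1 understates changes of low genes. The design had named edgeR as the main test for raw counts, and the table does not hold them. On the recovered reads, edgeR 4.0.16 called 4381 genes and DESeq2 1.42.0 called 6906 in combined stress against control, against 4573 by limma. In water deficit they called 324, 1873 and 423, and in heat stress 973, 3314 and 1031. Intervals and the floor of 3 reads cover counting error only.

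The members and lists were chosen with earlier results of these data known. Each member was to be named, with every library for those called against control, and of each list the 3 genes with the highest mean. Other genes named were chosen after their values were seen, as were the 3 libraries high in LCL3. Gene names come from a RefSeq table for Glycine_max_v4.0, in which all 24 matching identifiers were found. Alternatives were other pseudocounts, filters, scalings, spread estimates, tests and sets of libraries.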

Additional observations from a re-analysis of the deposited data

How the results depend on the processing

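No paired analysis was possible because the labels give the groups no shared replicate numbers. The counts of called members ran from 0 to 2 in water deficit, 0 to 3 under heat, 4 to 9 in combined stress, 0 to 3 for combined stress minus water deficit, 5 to 7 for combined stress minus heat stress and 0 to 2 for the interaction when each library was left out in turn. The medians then ran from 1.01 to 2.19, -0.85 to -0.30, 3.24 to 4.81, 0.60 to 1.91, 2.55 to 4.12 and 0.64 to 2.19. In water deficit the count was 0 without a filter or without a variance trend, where DEHYDRIN had adjusted p of 0.0516 and 0.0684. It was 2 with the same total per library, quantile normalization or the compared libraries alone, and 6 with DESeq2. Of the 33119 genes tested, DESeq2 called 1873 in water deficit. Without the 3 libraries high in LCL3 combined stress library 1 was alone in its group. The medians were then 1.49 for combined stress minus water deficit and 1.99 for the interaction. DESeq2 called 11 members for combined stress minus heat stress, and 3834 of the 33119 genes tested, against 1724 by limma. Members with a low control mean had passed the filter through dry libraries, so nothing is read from the count of 11. A filter on the control mean, which tests fewer genes, gave 2 in combined stress (median 0.27), 1 against water deficit (median 0.47) and 2 against heat stress (median 1.11). A pseudocount of 10 gave a combined stress median of 2.33. PM3 lost its combined stress call with it (adjusted p 0.0794), as LEA5 did with a pseudocount of 0.5 (0.0501). With the compared libraries alone LEA5 lost its call against heat stress (0.107), LEA-1 its call against water deficit (0.0626) and GMDREB2A2 its call (0.0643). SPK-2 lost its call with the same total (0.0891) and STS its water deficit call without a variance trend (0.0546). The cause of these moves was not tested.

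The lists moved by 1 to 3 genes. Called abscisic acid genes were 2 in water deficit and 4 in combined stress with DESeq2, and 1 in combined stress with the same total. Called DREB genes were 2 in water deficit and 1 in heat stress with DESeq2, and 1 in combined stress without a variance trend or with the compared libraries alone. Called solute genes in water deficit were 2 with quantile normalization, DESeq2 or the compared libraries alone and 0 without a variance trend, and DESeq2 gave 1 in heat stress. Storage genes gave 1 in water deficit with the compared libraries alone or DESeq2, and 1 in combined stress with DESeq2. Photosynthesis genes gave 1 in water deficit with the compared libraries alone, 1 in heat stress with the same total, edgeR or DESeq2, and 4 in combined stress with DESeq2. Aquaporins gave 2 in water deficit with the compared libraries alone and 1 with DESeq2, and 1 in combined stress with DESeq2. With libraries left out in turn the counts in water deficit, heat stress and combined stress were 0 to 1, 0 and 1 to 3 for abscisic acid genes, 0, 0 to 1 and 0 to 3 for DREB genes, 0 to 2, 0 to 1 and 2 to 4 for solute genes, 0 to 1, 0 to 1 and 2 to 4 for photosynthesis genes, 0 to 1 in each for aquaporins and 0 in each for storage genes.

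Signs turned for changes near 0 or uncalled. With quantile normalization PM16, PM27 and PM30 were at 0.22, 0.53 and 0.0798 in heat stress, RCABETA at 0.0419 and PIP2 at 0.0102 in combined stress. PIP2 was at 0.0583 with the same total and 0.15 with edgeR and with DESeq2, which put GMKTI-2 at 0.19 and 0.18. Without the 3 libraries high in LCL3 the LEA-1 interaction was 0.12, and DREB2 was at -0.0013 in heat stress. In combined stress, which then had library 1 alone, LEA-2 was at -0.0824, MIPS4 at 1.48, GMKTI-3 at 0.17 and GMKTI-2 at 1.19. Leaving out 1 library turned DEHYDRIN (-1.42 to 0.0781), PM16 (-0.88 to 0.31), DREB2 (-0.0013 to 0.34) and GMCYP707A1A (-0.12 to 0.21) in heat stress. It turned LEA-2 (-0.18 to 0.12), PM23 (-0.49 to 0.000591) and DREB2 (-0.35 to 0.63) in water deficit. In combined stress it turned LEA-1 (-0.51 to 0.42), PM29 (-0.73 to 0.84), PM37 (-0.34 to 0.41), SPK-3 (-0.18 to 0.39), GMKTI-2 (-1.03 to 0.50), RCABETA (-0.40 to 0.0459), PIP2 (-0.37 to 0.49) and PIP1 (-0.63 to 0.98). The combined stress call of DEHYDRIN held under every setting and with each library left out. The calls of PM16 and PM27 held wherever they were tested, but the filter on the control mean leaves both genes out. Both had passed the main filter through dry libraries, so nothing is read from the stability of their calls.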

Other observations

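2 genes below the mean of 10 were called higher in combined stress in a fit with no filter on low genes, and were chosen after their values were seen. PM28 had 0.881, 0 and 0 normalized counts in control libraries 1 to 3, 1.87, 0 and 0 in water deficit, none under heat, and 6.61, 8.28 and 24.8 in combined stress. Each combined stress library was above the other 9 (log2 change against control 3.31, limma adjusted p 0.00377). GMABI5, a bZIP factor gene of abscisic acid signalling, had means of 0.548 ± 0.478 in control, 6.66 ± 2.15 in water deficit, 1.86 ± 1.89 under heat, and 17.7 ± 6.21 in combined stress (n = 3 per group, SD). Its log2 change in combined stress was 3.59 (limma adjusted p 0.00344).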
